A study of Mus musculus with 69 samples.

Results

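The last exons of multi-exon genes were examined in the ventral striatum of mice of 2 stocks, one of them bred for drinking in the dark. For each gene with 4 or more exon rows in the deposited exon table and a mean summed count of 200 or more over 69 libraries, the row furthest downstream on the gene's strand was taken. The rule gave 9058 last exons of 253821 exon rows in all, from 18595 genes with 4 or more rows. A row is a block of merged exon sequence, so a last exon here can join the ends of several transcripts. The measure is the share of the gene's counts that fell in the last exon. At the edge of the rule, Ston2 (mean gene count 200.1) was a member with a pooled last exon share of 30.6%, and Lyar (199.99) was left out with 13.4%.

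The HDID1 line was bred by selection for high drinking in the dark, and the HSNpt stock, genetically heterogeneous mice, served as its control. There were 17 female and 18 male HDID1 mice, and 17 female and 17 male HSNpt mice, each giving 1 library. The protocol recorded with the samples of both lines has the mice drink from a bottle of 20% ethanol on 4 days, starting 3 hours into the dark phase, with tissue taken 3 weeks later. It counts 18 males and 17 females, the numbers of HDID1, so whether it holds for HSNpt as well is not certain. No sample is labelled ethanol-naive, and ages are not given. Polyadenylated RNA was sequenced from dissected striatum with stranded libraries, whose assigned counts ranged from 14077983 to 35257422 with a median of 17646316.

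The last exon of a mammalian mRNA usually carries the stop codon and most of the 3′ untranslated region, and it ends where the transcript is cut and the poly(A) tail is added. The cut is directed by a hexamer a short way upstream, most often AATAAA and less often ATTAAA in DNA letters, which is bound by the cleavage and polyadenylation complex. In neurons many genes have more than one end, and the choice between them sets which regulatory sequence or even which protein form the mRNA carries.

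The final 30 bases of 9 last exons are shown because these exons are described in detail below, and capitals mark the hexamer. They are GENCODE vM21 transcript ends (GRCm38, the same assembly as mm10), 5′ to 3′ on the gene's strand.
Rpl21: gttagcATTAAAtgcactggagagcttcaa
Rpl34: taagtAATAAAaatcaagacttgatctacg
Rpl15: ctaaagtAATAAAtgtcttaaacaagtgga
Rpl29: cttacaAATAAActcaggcaagatctgtta
Rps3a1: gacaAATAAAaagtcctatttgtgatcgtt
Morf4l1: cAATAAAttttttctttaaatttcaagaga
Pclo: agccttactAATAAAtactgaaactatcaa
Eif4a1: attctgAATAAAattacttggaaactgcct
H2-D1: AATAAAtggcagatgaaggaacttccagaa
The windows lie at chr5:146837003-146837032 for Rpl21, chr3:130726831-130726860 for Rpl34, chr14:18267823-18267852 for Rpl15, chr9:106431539-106431568 for Rpl29 and chr3:86137940-86137969 for Rps3a1. Those of Morf4l1, Pclo, Eif4a1 and H2-D1 lie at chr9:90091665-90091694, chr5:14863430-14863459, chr11:69666936-69666965 and chr17:35267470-35267499. Rpl21, Rpl29, Pclo and H2-D1 are on the plus strand and the others on the minus strand. In 8 of these 9 exons the hexamer was AATAAA, and in Rpl21 it was ATTAAA.

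Over all members, the row end was an annotated transcript end in 7028 exons. AATAAA on the transcript strand was present in the last 40 bases of 62.8% of them, ATTAAA in 17.5%, and at least one of these in 77.3%. By share, AATAAA was found in 46.1% of ends in exons under 5%, in 58.4% from 5 to 20%, in 63.4% from 20 to 50%, in 68% from 50 to 80% and in 67.1% at 80% or more. A match is only a run of letters, and no test was made of it.

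The last exon held a median of 35.9% of a gene's counts, with quartiles of 19.6% and 55.6%. Its median length was 1423 bases. Counts per base in the last exon were 1.02 times those of the whole gene at the median, whereas first exons of the same genes had a median ratio of 0.343 and a median share of 1.95%. Across genes, the share followed the last exon's part of the gene's exon bases, with Pearson's r of 0.820 and a Spearman coefficient of 0.820 over 9058 genes. Genes are not independent replicates, and both measures share the same row, so these coefficients are descriptions.

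**Figure D1:**
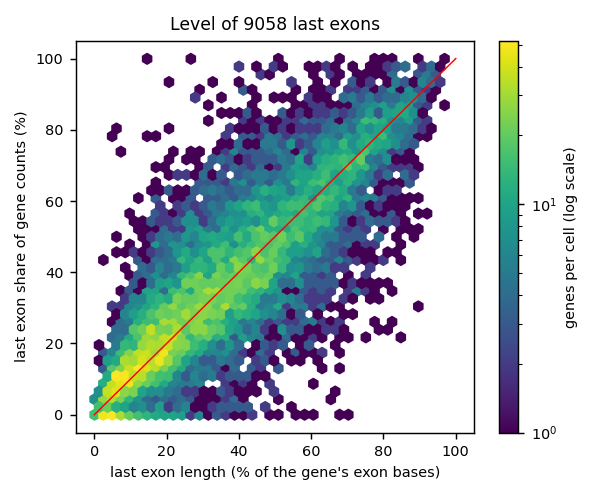
Last exon share of gene counts (%) against last exon length as a percentage of the gene's exon bases, for 9058 genes binned in hexagons coloured by the number of genes on a log scale. The red line marks equal percentages, and the cloud runs along it (median density ratio 1.02), with a band of exons near 0 at the bottom.

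The share of the last exon and its length both went with what the annotation places in it. In 3388 genes every coding transcript ends in the last exon, and the median share was 41.7%. In 4310 genes only some do, and the median was 33.8%. In 929 genes none does, and the median was 24.2%. Of these 929 rows, 215 end at an annotated transcript end. In 108 genes without a coding transcript the median share was 15.5%, and 323 genes were not found in the annotation under their names. Median last exon lengths in these classes, in the order given, were 1582.5, 1439.5, 853 and 762 bases. Counts per base relative to the whole gene had medians of 1.03, 1.05, 0.870 and 0.863, so they did not drop between the first and the second class.

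The extremes of the level were of different kinds. The highest mean shares were those of Slc3a1, a subunit of the cystine transporter, at 99.9% ± 0.0966 (SD, n = 69), and of 1700022I11Rik, Fxyd3, Nr1i3 and Ube2v2, each at 99.6% or more. In the first 4 of these 5 the last exon overlaps a row of another gene, and whether the counting told such genes apart by strand is not given. At the other end, 8 members had no count in any library. They include the last rows of Kcnma1, the pore subunit of the BK potassium channel, with 22 bases, of Pnp, purine nucleoside phosphorylase, with 65 bases, and of Ptprj, a receptor tyrosine phosphatase, with 293 bases. A count of 0 over all libraries allows shares of up to 0.00273% for Kcnma1, 0.0110% for Pnp and 0.00253% for Ptprj (3 counts of the summed gene count). These limits cover counting error only.

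In 9 libraries the last exons as a whole held a larger share than in the others. The balance of a library was taken as the median, over last exons, of the log2 share relative to its mean over libraries. It ran from -0.20 to 0.07 in 60 libraries and from 0.09 to 0.78 in the 9 that lay more than 3 scaled median absolute deviations away, all on the same side. Median last exon shares were 31.1% to 39.4% in the 60 and 40.1% to 71.5% in the 9. Of the 9, 7 were among 35 HDID1 libraries and 2 among 34 HSNpt libraries. In the same 9 libraries the first exons were low, with balances from -2.12 to -0.20 against -0.25 to 0.35 in the rest. Counts of calls and named calls that changed without these 9 are given below with that value.

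**Figure D2:**
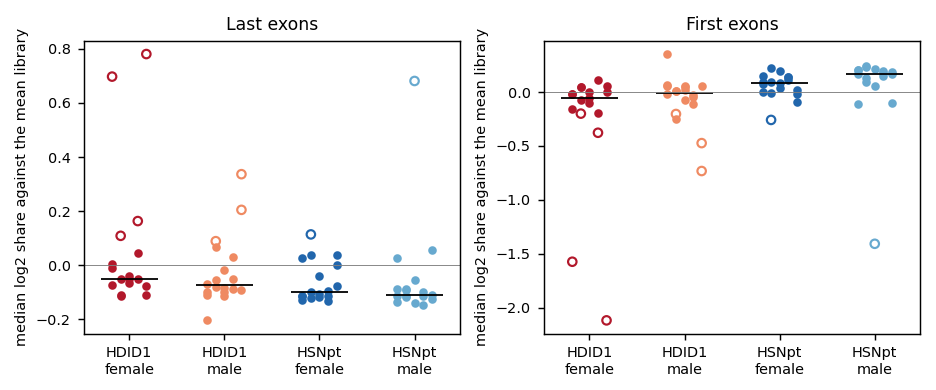
Median log2 share of last exons (left) and first exons (right) in each library against the mean over libraries, by line and sex, with lines at group medians and open circles for the 9 libraries that stand apart. The open circles reach 0.78 for last exons and -2.12 for first exons.

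Between the lines, 67 of 8757 tested last exons changed in share at an adjusted p under 0.05 (edgeR's quasi-likelihood test with the gene's count in each library as offset, Benjamini-Hochberg over 104848 exon rows), 52 higher and 15 lower in HDID1. That is 0.765% of last exons, against 0.963% of all exon rows in the same test (1010 rows). Higher shares were called in 0.594% of last exons and 0.141% of all rows, and lower shares in 0.171% and 0.822%. First exons were called in 557 of 5662 cases (9.84%), 553 of them (9.77% of first exons) lower in HDID1. The remaining 301 members had a mean count under 10 and were not tested. In no member did the ranges of the lines lie apart, and the number over all exon rows is not given here. With the library balance as a covariate 169 last exons were called, 95 higher and 74 lower. Without the 9 libraries 122 were called, 92 higher and 30 lower. The share of all exon rows called in these settings is not given here, so these counts are not read as particular to last exons.

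Most last exons leaned slightly to HDID1. The median log2 ratio of shares, HDID1 over HSNpt, was 0.08, and 95.2% of tested last exons lay above 0. Without the 9 libraries the median was 0.02 with 75.7% above 0, and with the balance as covariate it was 0.00 with 53.6% above 0. The balance is itself the median over these last exons, so a median near 0 with it as covariate follows largely from its definition. Of the 67 called exons, 33 had a change under 0.2 on the log2 scale and 8 one over 1. Genes with 4 to 7 rows gave 39 of the 67, which is 1.63% of the 2387 tested. Of the 6370 tested genes with 8 or more rows 0.44% were called.

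**Figure D3:**
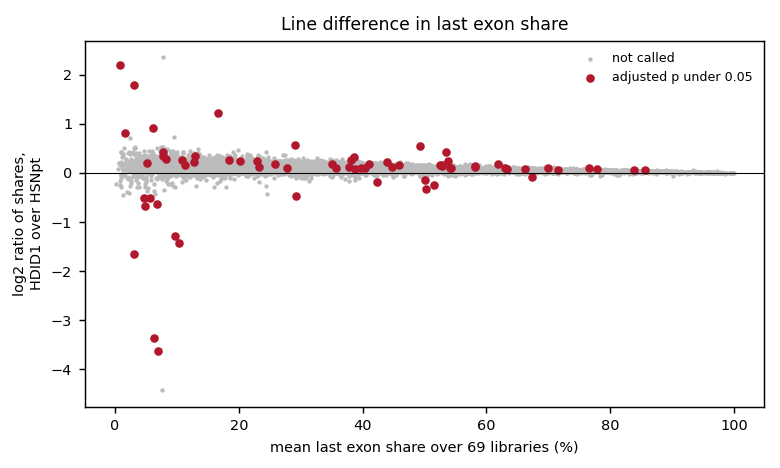
Log2 ratio of last exon shares, HDID1 over HSNpt, against the mean share over 69 libraries, for 8757 tested last exons, with the 67 called exons in red. The grey band sits just above 0 (median 0.08), and the largest called changes, down to -3.62 and up to 2.19, belong to exons with small shares.

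The largest fall among called exons was in Rpl21, which encodes a protein of the large ribosomal subunit. Its last exon (chr5:146835864-146837032, 1169 bases, mostly 3′ untranslated sequence) held 0.585%, 1.05% and 1.45% of the gene's counts in HDID1 as lowest, median and highest, and 0.719%, 13.9% and 24.3% in HSNpt. All 35 HDID1 mice lay at or under 1.45%, with 8 of the HSNpt mice. Another 17 HSNpt mice lay between 12.6% and 16.1%, and 9 between 19.5% and 24.3%, with no mouse between these bands, whose edges were drawn after the values were seen. The log2 ratio was -3.62 ± 0.26 (SE), with an adjusted p of 5.05e-17 by edgeR's quasi-likelihood test, and it was -3.46 in females and -3.79 in males. In CPM (counts scaled to the library's total), the last exon averaged 1.30 ± 0.576 (SD, n = 35) in HDID1 and 18.1 ± 14.2 (n = 34) in HSNpt, and the other 4 rows together 125 ± 71.2 and 118 ± 47.9. The row just upstream, of 113 bases, held 72.2% ± 1.41 of counts in HDID1 and 61.5% ± 5.81 in HSNpt. The annotation holds 15 pseudogenes named after Rpl21 (its symbol followed by -ps), and how reads were shared between such copies was not tested.

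Rpl34, another large subunit protein, also fell. Its last exon (chr3:130726831-130726959, 129 bases) held 0%, 0.485% and 17.8% in HDID1 and 0.391%, 18.1% and 21.9% in HSNpt. The mice fell in 2 sets with none between 1.02% and 9.40%. The lower set held 27 of 35 HDID1 mice and 1 of 34 HSNpt mice. In 7 mice no count was seen, which allows shares of up to 0.893% to 1.60% depending on the gene's count. Its fitted log2 ratio was -1.42 ± 0.28 (SE, adjusted p = 0.000893, edgeR's quasi-likelihood test). DiffSpliceDGE, edgeR's test of each row against the gene's other rows, did not call it (-0.66). The remaining rows together stood at 36 ± 51.7 CPM in HDID1 and 92.8 ± 95.3 in HSNpt, and the first row's share moved the opposite way, 7.82% ± 3.74 against 2.02% ± 1.46.

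Rpl15, also of the large subunit, changed little. Its last exon (chr14:18267823-18269316) held 44.3%, 46.9% and 55.5% in HDID1 and 44.01%, 53.6% and 65.4% in HSNpt. The 5 mice at 62.3% or more were all HSNpt, and no mouse lay between 56.4% and 62.3%. The log2 ratio was -0.14 ± 0.03 (SE, adjusted p = 0.00715, edgeR's quasi-likelihood test). DiffSpliceDGE did not call it.

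Rps24, a protein of the small ribosomal subunit with known tissue-specific 3′ splice forms, had the largest fitted rise among called exons, but it rested on 4 mice. The last exon (chr14:24495775-24496146, 372 bases) held 0.166%, 0.352% and 11.5% in HDID1 and 0.127%, 0.336% and 0.594% in HSNpt. In 2 HDID1 females and 2 HDID1 males the share was 8.91% to 11.5%, and in the other 65 mice it was 0.630% or less. Its fitted log2 ratio was 2.19 ± 0.42 (SE, adjusted p = 0.000576, edgeR's quasi-likelihood test), but 0.62 by limma and 0.03 by DESeq2, neither of which called it.

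Morf4l1, a chromatin protein found in histone acetyltransferase and deacetylase complexes, rose in most HDID1 mice. Its last exon (chr9:90091665-90092402, 738 bases) held 0.881%, 5.05% and 9.74% in HDID1 and 1.02%, 1.28% and 2.14% in HSNpt. The share lay above the HSNpt median in 34 of 35 HDID1 mice and above the highest HSNpt mouse in 26. Of the HDID1 mice, 25 lay at 3.79% or more and 10 at 2.43% or less, where all HSNpt mice lay as well. The log2 ratio was 1.80 ± 0.16 (SE, adjusted p = 4.07e-13, edgeR's quasi-likelihood test), with 1.97 in females and 1.62 in males. The last exon stood at 15.7 ± 8.96 CPM in HDID1 and 4.02 ± 0.985 in HSNpt, with 313 ± 30.4 and 291 ± 45.7 in the other 11 rows.

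H2-D1, a heavy chain of the class I major histocompatibility complex, had a higher last exon share in HDID1. The exon (chr17:35266688-35267499, 812 bases) held 48.6%, 56.9% and 84.0% in HDID1 and 25.2%, 37.8% and 61.5% in HSNpt, above the HSNpt median in 35 of 35 HDID1 mice. Its fitted log2 ratio was 0.55 ± 0.06 (SE, adjusted p = 7.33e-11, edgeR's quasi-likelihood test), and diffSpliceDGE gave 0.56 without a call. Its CPM was 5.50 ± 3.28 in HDID1 and 11 ± 5.55 in HSNpt, while that of the other 6 rows was 3.88 ± 2.40 and 16.7 ± 7.72. The second row held 1.47% ± 2.84 of counts in HDID1 and 12.7% ± 4.44 in HSNpt, a log2 ratio of -2.64, and the third row -0.92.

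In Pclo, which encodes the presynaptic active zone protein piccolo, 2 ends could be compared. Of its 3 coding transcripts, 2 end in row 19 of 25 and 1 in the last exon (chr5:14861407-14863459). The last exon held 2.99%, 6.13% and 32.8% in HDID1 and 1.5%, 3.54% and 18.2% in HSNpt, higher than the HSNpt median in 31 of 35 mice. The log2 ratio was 0.91 ± 0.21 (SE, adjusted p = 0.00952, edgeR's quasi-likelihood test), and the row before it rose by 0.61. Row 19 held 22.7% ± 12.6 and 20.6% ± 9.97, a log2 ratio of 0.12 with an adjusted p of 0.701. Without the 9 libraries the last exon's log2 ratio was 0.57, and with the balance as covariate 0.55, both still called.

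Among translation factors, the last exon of Eif4a1, the RNA helicase of the cap-binding complex, held 15.2%, 33.5% and 65.5% in HDID1 and 11.8%, 25.5% and 33.8% in HSNpt. It lay above the HSNpt median in 32 of 35 HDID1 mice. Its fitted log2 ratio was 0.57 ± 0.09 (SE, adjusted p = 5.16e-05, edgeR's quasi-likelihood test), 0.77 in females and 0.36 in males, and the row upstream fell by 0.20. Eif3m, a subunit of initiation factor 3, rose by 0.35 on the log2 scale, from a median of 6.81% in HSNpt to 8.13% in HDID1, in an exon that overlaps another gene's row, and was not called by diffSpliceDGE. The row upstream of that exon rose as well, by 0.28 (adjusted p = 0.00147, edgeR's quasi-likelihood test).

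The other rises named by the rule were smaller. Gm26672, on chromosome 18 and overlapping another gene, had medians of 61.1% in HDID1 and 44.1% in HSNpt, with a log2 ratio of 0.42. Rgs3, which speeds the switching off of G proteins, had 14.2% and 11.7% and a log2 ratio of 0.34. Prr3 had 42% and 32.5%, with 0.32, and Kazn, the junction-associated protein kazrin, 11.4% and 9.77%, with 0.27. Without the 9 libraries Rgs3 (0.24) and Kazn (0.19) were no longer called by edgeR, and diffSpliceDGE called none of these 4.

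The other falls were of the same order. Gm16039 had medians of 23.5% in HDID1 and 34.6% in HSNpt, a log2 ratio of -0.48, with 10 HDID1 mice under the lowest HSNpt mouse. Pigz, a mannosyltransferase of glycosylphosphatidylinositol anchor synthesis, had 46.5% and 56.9% (-0.33). Ahcyl2, a homologue of S-adenosylhomocysteine hydrolase, had 45.1% and 54.3% (-0.24), with 24 HDID1 mice under the lowest HSNpt mouse. The row just upstream of the Ahcyl2 last exon had a larger fall (-0.49). Ppp2r1b, a scaffold subunit of protein phosphatase 2A, had 39.3% and 45.1% (-0.18), and its call was lost without the 9 libraries (-0.14). PCDHA9, a name of the protocadherin alpha cluster, had 65% and 69.4% (-0.08). Of these 5, diffSpliceDGE called Gm16039 alone.

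**Figure D4:**
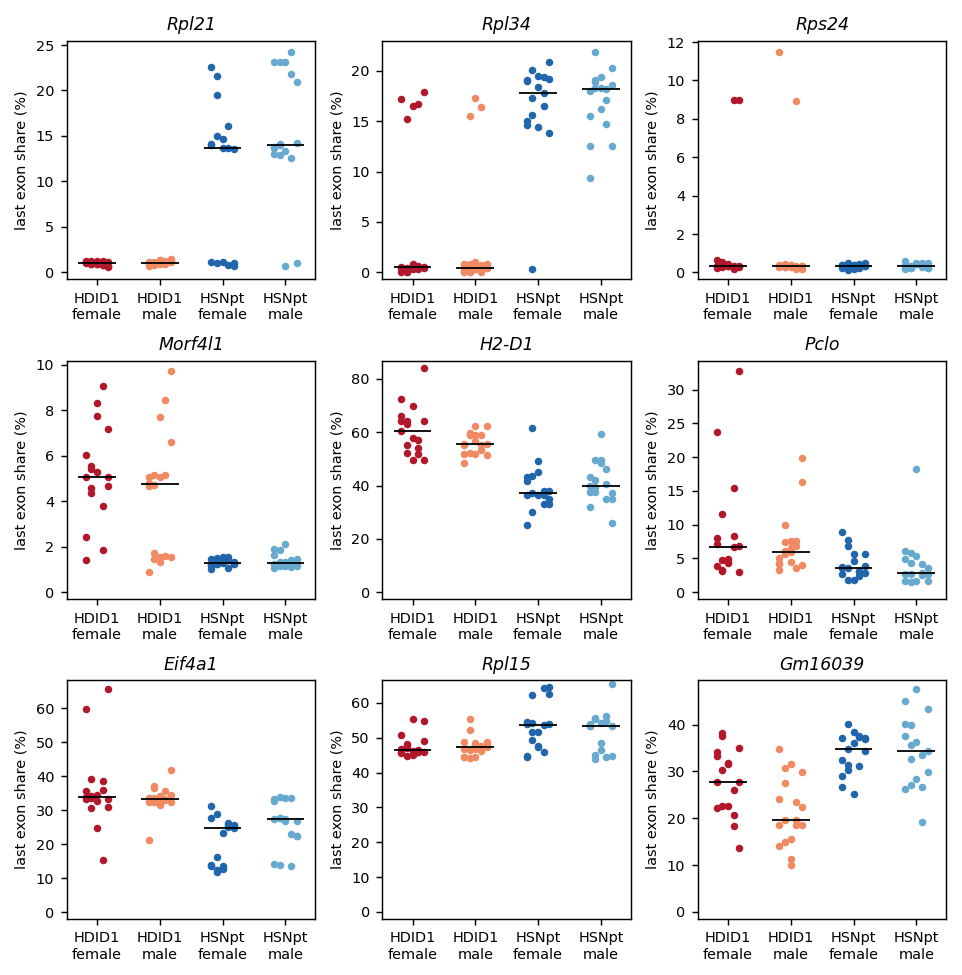
Last exon share of the gene's counts (%) in each of 69 mice by line and sex for 9 genes, each point a mouse and each line a group median. The HDID1 mice of Rpl21 all sit at 1.45% or less, 4 HDID1 mice of Rps24 stand at 8.91% or more, and the mice of Rpl34 fall in 2 sets.

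Further exons changed by more than 1 on the log2 scale but had mean counts under 50, outside the naming rule, and were picked after their values were seen. Gm14204 fell by 3.36, with medians of 0.593% in HDID1 and 7.13% in HSNpt. Odc1, ornithine decarboxylase, the first enzyme of polyamine synthesis, fell by 1.65 in the fit, with 1.25% and 1.76%. These medians lie closer together than the fitted ratio, and the highest shares were 5.54% in HDID1 and 14.6% in HSNpt. Polr1d, a subunit shared by RNA polymerases I and III, fell by 1.28, with 5.23% and 15.3%. D430036J16Rik rose by 1.23, with 20.9% and 9.84%.

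By function, the 55 ribosomal protein genes gave 6 of the 67 calls, 3 higher and 3 lower of 53 tested, against 0.765% of all last exons, and their median log2 ratio was 0.04 against 0.08 over all members. Besides the genes above, Rpl38, of the large subunit, rose by 0.11 (medians 41.7% and 39%). Their last exons were short, with a median of 222 bases, and their median SD of log2 odds among mice was 0.147 against 0.487 over all members. Of these 55 genes, 44 have a pseudogene named after them in the annotation. Only pseudogenes whose symbol is the gene's own followed by -ps were counted, so copies under other symbols are missed. Over all tested members, 6.95% of 187 genes with a named pseudogene were called and 0.630% of the other 8570, a split made after the calls were seen.

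No member was called in the lists of genes for cleavage and polyadenylation, spiny projection neurons, glutamate receptors, GABA receptors or postsynaptic scaffolds. Over all last exons 0.765% were called, so no call in lists this small is not read as a result about them. All 17 polyadenylation genes were tested, with a median log2 ratio of 0.11. The smallest p was that of Fip1l1, a subunit of the cleavage complex, with 42.2% in HDID1 and 39.7% in HSNpt as medians, a log2 ratio of 0.15 and an adjusted p of 0.264 by edgeR. Among 15 tested spiny neuron genes (median 0.08) it was Arpp21, a cyclic AMP-regulated phosphoprotein, with 2.02% and 1.57% (0.41, adjusted p = 0.280). Among 21 glutamate receptor genes (median 0.11) it was the kainate receptor Grik2, with 30.8% and 27.7% (0.23). Among 14 GABA receptor genes (0.07) it was Gabra4, with 62.4% and 60.2% (0.08), and among 18 scaffold genes (0.11) it was the neuroligin Nlgn2, with 60.01% and 57.5% (0.08). These medians lie near the 0.08 of all last exons.

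A list of 13 genes known for alternative ends, 11 of them members and 10 tested, held no call among last exons either, with a median of 0.07. With 0.765% called over all last exons, this is not read as a result about the list. Ntrk2, the receptor for brain-derived neurotrophic factor, makes a full-length form and a truncated form that lacks the kinase. Its last exon, the full-length end, held 15.4%, 20.9% and 31.4% in HDID1 and 18.3%, 24.4% and 34.4% in HSNpt, a log2 ratio of -0.19 ± 0.06 (SE, adjusted p = 0.115, edgeR). Row 14 of 20, where 2 coding transcripts end, held 37.2% ± 4.95 in HDID1 and 32.7% ± 5.08 in HSNpt and rose by 0.18 (adjusted p = 0.0462). In Homer1, a postsynaptic scaffold whose short form ends early, the last exon held 32.4% ± 6.05 and 28.7% ± 4.66 (0.17, adjusted p = 0.153), and row 6 of 12, where 1 coding transcript ends, 25.8% ± 4.95 and 27.9% ± 3.28 (-0.11, adjusted p = 0.418).

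The rest of this list gave levels without calls. In Cdc42, a small GTPase with 2 alternative last exons, the distal one held 30.3% ± 2.33 (SD, n = 69) and the other 22.7% ± 2.78. The adhesion molecule Ncam1 had 27% ± 8.56, the glutamate transporter Slc1a2 85.6% ± 4.35, Nrp1 50.4% ± 10.7 and Tmpo 51% ± 7.11. In Lmna the last exon held 6.09% ± 1.23, and in Il1rap 9.51% ± 3.91 against 43.6% ± 6.79 in row 11 of 14. The neurotrophin receptor Ntrk3 had 3.27% ± 1.25, and the prolactin receptor Prlr, too low to test, 1.44% ± 1.42.

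Within each sex fewer last exons passed. In females 15 did (0.171%, as against 0.146% of all rows), 13 higher (0.148%) and 2 lower (0.0228%). In males 14 did (0.16% against 0.25%), 8 higher (0.0914%) and 6 lower (0.0685%). The median log2 ratio was 0.15 in females and 0.01 in males. Without the 9 libraries these medians were 0.02 in each sex, and 18 last exons passed in females and 43 in males. The shares over all rows are not given for that setting. No last exon differed between the sexes in its line effect by edgeR, DESeq2 or limma, and by edgeR no other exon row did. An unadjusted p under 0.05 by edgeR was found for 619 of 8757 last exons (7.07%). Without the 9 libraries this number was 185, and with the balance as covariate 314. The smallest interaction p belonged to Mtg1, whose line effect was 0.33 in females and -0.08 in males, and then to Man2b2 (0.45 and -0.34), D130017N08Rik, Gpld1 and Apba3, all at an adjusted p of 0.949.

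Sex itself changed no last exon at an adjusted p under 0.05 by edgeR, against 0.00954% of all rows, with 80 (0.914%) at an unadjusted p under 0.05. Without the 9 libraries that number was 406, and with the balance as covariate 391. DESeq2 also called 0, and limma called Xist and Eif2s3y, genes of the sex chromosomes known for sex-specific expression. Where a gene has next to no counts in a sex, its log2 odds there rest on the added 0.5. These calls are therefore no measure of a sex difference in last exon share. The smallest p by edgeR was that of Aptx, a DNA end-processing enzyme, with a log2 ratio, males over females, of 0.09 ± 0.02 (SE, adjusted p = 0.478), followed by Samd11, Tctex1d2, Rnf149 and 3632451O06Rik.

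Libraries, each from 1 mouse, varied in last exon share by more than counting error. Differences between mice and between library preparations cannot be told apart here. The variance among libraries was a median of 15 times the binomial variance, over 2 times in 95.2% of tested last exons and over 10 times in 60.1%. The SD of the log2 odds of a last exon read was 0.487 at the median. These values include the 9 libraries that stand apart, which shift most last exons together, and were not computed without them.

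The widest spreads, among exons with a mean count of 50 or more and a mean share from 5% to 95%, were mostly jumps between 2 levels. Erdr1, which lies at the pseudoautosomal end of the sex chromosomes and is listed on Y in the table, had a last exon share of 0.351% or less in 23 mice and of 38.5% to 48.4% in 46, with 11 HDID1 and 12 HSNpt mice in the lower set. Both sets held females and males. In 21 mice no count was seen, which allows up to 0.813% to 3.66%. Rpl29, a large subunit protein, lay at 1.34% or less in 44 mice and at 37.2% to 47.4% in 25, of which 12 were HDID1 and 13 HSNpt. Its line effect was -0.04 with an adjusted p of 0.978 by edgeR.

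Rps3a1, of the small subunit, had shares of 0.161% to 0.990% in 22 mice, 4 of them HDID1 and 18 HSNpt, and of 10.1% to 20.3% in 47. The medians were 13.1% in HDID1 and 0.885% in HSNpt, with a log2 ratio of 0.73 ± 0.32 (SE) that did not pass (adjusted p = 0.398, edgeR's quasi-likelihood test). Rpl6, of the large subunit, lay at 6.74% to 14.2% in 63 mice, and at 0.0291% to 0.187% in 6, 3 of each line. Tceanc2, which overlaps another gene, lay at 4.58% or less in 18 mice and at 18.8% to 54.7% in 51. Lars2, the mitochondrial leucyl-tRNA synthetase, ranged from 68.9% to 99.6%, with last exon counts of 837 to 71554 per library, and Parpbp, overlapping another gene, from 14.3% to 100%, with gene counts of 7 to 6995 and a variance 1.74 times the binomial.

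**Figure D5:**
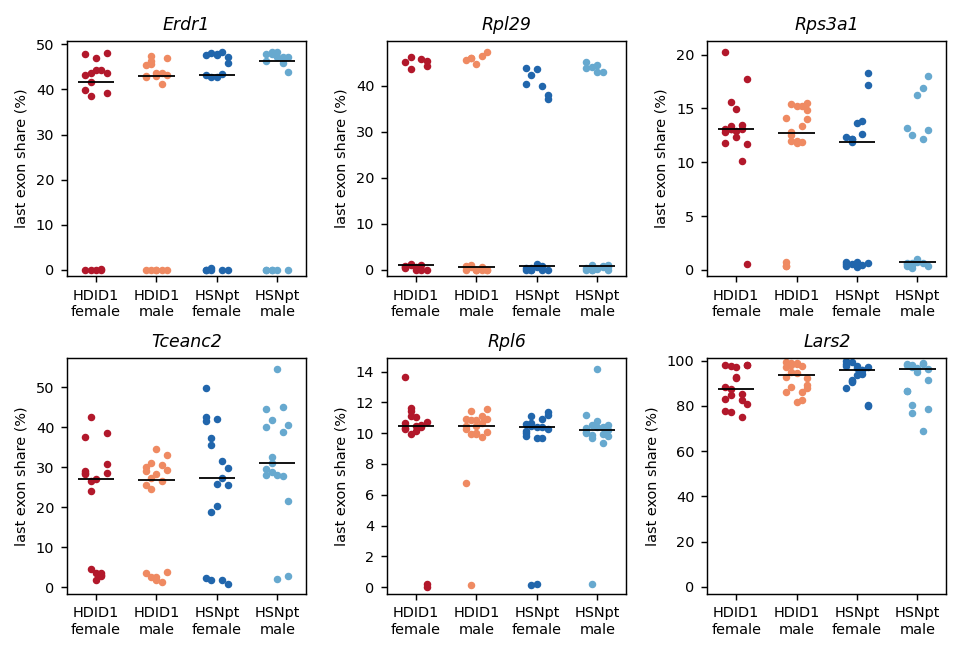
Last exon share (%) in each of 69 mice by line and sex for 6 genes of wide spread, with lines at group medians. Mice of Erdr1, Rpl29, Rps3a1 and Rpl6 fall in 2 sets with none between, and those of Lars2 range from 68.9% to 99.6% without a clear gap.

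The spread itself was compared between lines by limma on the absolute deviations of log2 odds from the group median. No last exon passed an adjusted p of 0.05, and 92 of 8757 (1.05%) had an unadjusted p under 0.05, or 233 without the 9 libraries, where again none passed the adjusted p. The deviation was larger in HDID1 in 94.6% of last exons, by a median of 0.10, but in 47.5% without the 9 libraries, with a median of -0.00. The smallest p values were those of Morf4l1 (larger in HDID1 by 0.53), Rpl34 (1.27), Psmd10, Homer2 and Lancl1, and, larger in HSNpt, of A230087F16Rik, Rpl21 (0.98), Rps3a1 (1.52), Gm26672 and Rpl15, each at an adjusted p of 0.689. On the share itself 3 passed, Morf4l1 larger in HDID1, and Rpl21 and Odc1 larger in HSNpt.

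Markers of 8 cell types or regions were summed in each library. Choroid plexus markers (8 genes) summed to a median of 1660 CPM in HDID1 and 790 in HSNpt, with ranges of 25.5 to 5649 and 16.9 to 5500. Hypothalamic markers (9 genes) summed to 315 and 205, and spiny neuron markers (12 genes) to 9154 and 10460. For oligodendrocytes the medians were 7940 and 7184, for astrocytes 1218 and 1092, for microglia 446 and 461, for endothelium 122.5 and 140, and for cortical neurons 390 and 393. The ranges of the lines overlapped in each of these 8 sets, and no test was made. None of these markers was at 0 in every library, and spiny neuron markers were abundant in both lines. Fewer cells of a type and less RNA per cell cannot be told apart in such tissue. The part of these differences in the last exon shares was not tested.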

How the data were processed

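Per the labels' protocols, polyadenylated RNA of hand-dissected striatum went into stranded Illumina libraries, 6 to a lane. The deposited values are whole-number read counts per exon row and per gene that the authors made on mm10. CASAVA, FastQC, STAR, bedtools and edgeR are named in the submitters' processing notes, without versions, and whether counting used strand is not given in the sources used here. Column headers of line and sex matched the labels in 69 of 69 libraries. Row counts were summed per gene name, chromosome and strand, and shares, CPM and fits were computed from them. With no repeat libraries of a mouse, p-values measure the spread between libraries, in which mouse, preparation and lane cannot be told apart. Within groups, the most alike of 561 library pairs had a chi-square per gene of 6.09, so no pair agreed within sampling noise.

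Exon rows of member genes with a mean count of 10 or more (104848 rows) were fitted in edgeR 4.0.16 (R 4.3.3) by quasi-likelihood, with 4 group means and the log of the gene's count per library as offset, and adjusted by Benjamini-Hochberg over all rows. Standard errors were taken as the log2 ratio over the square root of F. Spread was tested with limma 3.58.1 on log2((last + 0.5)/(rest + 0.5)). Alternatives included DESeq2 1.42.0, limma on log2 odds, diffSpliceDGE, other count minimums and 2 ways of treating the libraries that stand apart. The fits were tested on simulated data that held no library-wide shift and no jumps between levels. That test does not cover these features of the data. Annotation and end sequences came from GENCODE vM21, matched by name, chromosome and strand for 8735 members.

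Named genes were, for the line effect, up to 10 rises and 10 falls of largest size with a mean count of 50 or more and an unadjusted p under 0.05 of the same sign in each sex, and a few of smallest p or widest spread for the other results. The members and lists were chosen with earlier results of these data known. The 19 members whose names had become dates are counted but not named.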

Additional observations from a re-analysis of the deposited data

How the results depend on the processing

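Against 67 last exons called for line, DESeq2 called 116, diffSpliceDGE 12, genes with a mean count of 1000 or more 34, genes with 8 or more rows 16, the balance covariate 169 and leaving out the 9 libraries 122. In females (15) the counts were 28 by DESeq2, 7 by diffSpliceDGE, 8 with 1000 counts or more, 1 (Morf4l1) with 8 rows or more, 7 without overlapping genes, 26 with the covariate and 7 with a separate fit. In males (14) they were 6, 4, 83 and 43 with 1000 counts, 8 rows, the covariate and without the 9 libraries. For sex (0), limma called 2, diffSpliceDGE 1 (Rnf130) and the covariate 1 (Ano8), and for spread (0) the share scale called 3. Interaction stayed at 0 in the alternatives run. The covariate, drawn from the last exons themselves, moved the split for line from 52 higher and 15 lower to 95 and 74. The causes were not tested. Fewer rows are tested under the count and row minimums. Shares of all exon rows called under the alternatives are not given here.

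Of the 18 genes named for line, none reversed. Calls were lost for 12 under diffSpliceDGE, which compares each row with the gene's other rows (all but Rps24, Morf4l1, Pclo, Eif4a1, Rpl21 and Gm16039), for 3 under limma (Rps24, Rgs3 and Ahcyl2), 1 under DESeq2 (Rps24), 2 with the covariate (Rgs3 and Ppp2r1b), 3 without the 9 libraries (Rgs3, Kazn and Ppp2r1b) and 4 of 8 among genes with 8 rows or more. Rpl34 ranged from -0.66 (diffSpliceDGE) to -3.92 (limma, on log2 odds). Joining adjoining rows changed nothing, since 0 rows adjoin. No paired analysis was possible because the labels give no replicate numbers. Last exons with a mean count under 10 (301) were too shallow to test, and a share of 0 in 1 library bounds only that library.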

Other observations

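After the shares by mouse were seen, all last exons with a mean count of 50 or more (8183) were searched for a gap of 30% or more of the range with at least 5 mice on each side. It was found in 10, of which 5 encode ribosomal proteins (Rpl29, Rpl21, Rpl6, Rps3a1 and Rpl34). The list of ribosomal protein genes used above, whose naming rule leaves out Rps3a1, holds 55 of 9058 members. The same search was not made over all exon rows. Of the other 5, Erdr1 is described above, and Shox2, a homeobox factor, and Ddx3y, a Y-linked helicase, had at most 2 gene counts in each mouse of the lower set, so their shares there carry no information. Cox7a2l, which promotes respiratory supercomplexes, had 86.4% to 89.8% in 5 mice, all HSNpt, and 94.8% to 99.1% in 64. Ndufa7, a subunit of respiratory complex I, had 13.7% to 19.8% in 28 mice, 14 of each line, and 28.8% to 39.1% in 41. The line effect was called in 2 of the 10, Rpl21 and Rpl34, and 3 have a pseudogene under the gene's own symbol. The sets were drawn from the values themselves, so no test was made between them.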
